A study of Mus musculus with 35 samples.

Results

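The small intestine of wild-type mice was compared 6 h after an oral dose of eicosapentaenoic acid (EPA) and after the same dose of oleic acid (OA). By the labels alone, 9 of the 35 arrays of the series belong to this comparison, 5 from EPA mice and 4 from OA mice, and every probeset expressed in the series was tested. The EPA mice were wild-type 129S1/SvImJ males of 4 months that received 400 µl of trieicosapentaenoin, the synthetic triacylglycerol of a fatty acid with 20 carbons and 5 double bonds. The OA mice were of the same strain, sex and age and received 400 µl of triolein, whose fatty acid has 18 carbons and 1 double bond. Both groups had been kept on a modified AIN76A diet with olive oil and fasted for 4 h before the gavage. Each array held RNA of the whole length of the small intestine of 1 mouse. The rest of the series consists of wild-type mice given docosahexaenoic acid (DHA) or the synthetic agonist WY14643, and of PPARα-null 129S4/SvJae mice given the same 4 agents. No untreated mice entered the comparison, and a difference can therefore lie on the EPA side, on the OA side or on both.

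Dietary triacylglycerol is split in the gut lumen, and enterocytes take up the fatty acids, activate them to acyl-CoA and rebuild triacylglycerol, which leaves the cell in chylomicrons or rests for a time in lipid droplets. Polyunsaturated fatty acids such as EPA are also ligands of nuclear receptors of the PPAR family, precursors of eicosanoids, and, in liver, known to lower the expression of Srebf1, which encodes the transcription factor that drives fatty acid synthesis genes. OA is an abundant dietary fatty acid and a good substrate for esterification.

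Values were log2 signal as deposited, and a probeset was called expressed when the mean of any of the 8 groups was above log2 5, that is 32 on the linear scale. Of 15384 expressed probesets, 13710 had 1 gene symbol and stood for 8626 genes. The 9 arrays had medians of 2.83 to 2.88 and about the same share of probesets above 32. The array labelled EPA replicate 5 went against its genotype label: Cyp4a10, a PPARα target of omega oxidation, read 1.81 there, against 8.15 to 8.68 in the other 4 EPA mice and 8.81 to 9.73 in the OA mice. Ppara itself, on a probeset whose place relative to the deleted part of the gene is not known here, read 8.14 in EPA replicate 5, 9.45 to 9.93 in the other EPA mice and 8.71 to 9.74 in the OA mice. Differences below are given first without that array, and then with all arrays. Because it was set apart by a PPARα target, its removal is no independent test of such targets. EPA replicate 2 also stood apart, with the lowest mean correlation to its own group (0.965) and the lowest sum of 11 pancreatic acinar transcripts (11.10, against 14.51 to 16.58 in the OA mice), none of which differed at the threshold. Enterocyte markers were the brightest of the marker lists, and their sum was lower in every EPA mouse (16.92 to 16.96) than in every OA mouse (16.99 to 17.04). In a bulk tissue, fewer cells of a type and less RNA per cell cannot be told apart.

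**Figure D1:**
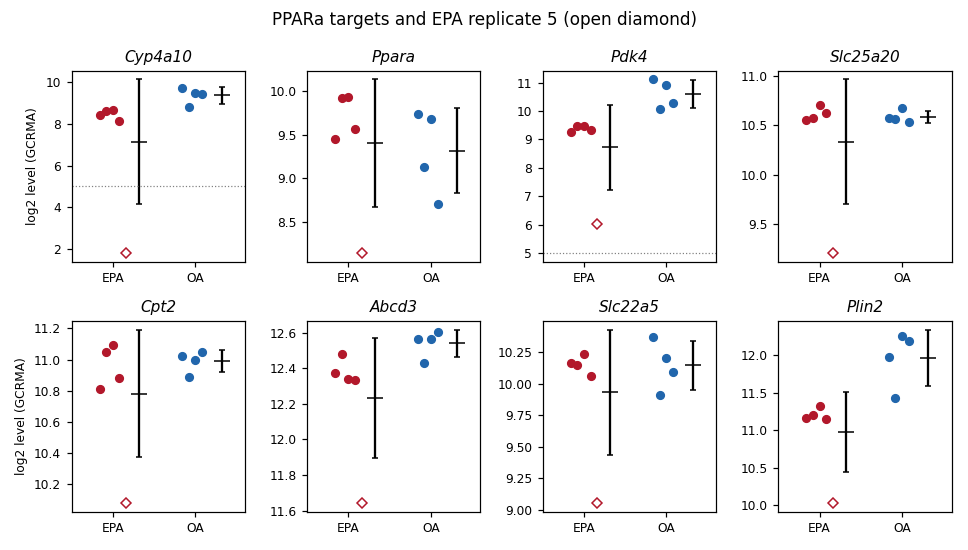
Log2 signal of Ppara and PPARα-related genes in each EPA mouse (left) and each OA mouse (right), with EPA replicate 5 as an open diamond, the mean and SD of all arrays of a group as bars and a dotted line at log2 5. Cyp4a10 read 1.81 in EPA replicate 5, against 8.15 to 8.68 in the other 4 EPA mice.

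Without EPA replicate 5, 524 genes differed between EPA and OA (limma, adjusted p under 0.05 over all expressed probesets). Of these, 235 were higher in EPA mice (2.72% of the genes tested) and 289 were lower (3.35%). With all 5 EPA arrays 691 genes differed, 315 higher (3.65%) and 376 lower (4.36%). Both fits called 498 genes, all in the same direction, which is 95% of the 524 and 72.1% of the 691. Most changes were small: 113 of the 524 genes and 125 of the 691 had a probeset that changed by more than 2-fold. At the study's own limit of an unadjusted p under 0.01 the counts were 931 and 1046 genes. The call rested on single arrays for many genes, since 250 of the 524 passed in each of the 8 fits that left out 1 further array, and 340 of the 691 in each of the 9. These counts take any probeset of a gene. A call that was lost in this way is stated below beside the gene. There it is scored on the probeset given, and another probeset of the gene can have kept the call.

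Several genes that make, activate and package fatty acids were lower in EPA mice. Srebf1 read 7.84, 7.43, 7.82, 7.26 and 7.48 in EPA replicates 1 to 5, against 9.68, 9.26, 9.62 and 9.63 in OA replicates 1 to 4. The groups did not overlap, and the highest EPA value lay more than 1 log2 unit below the lowest OA value. The difference was -1.96 without EPA replicate 5 (standard error 0.25, limma, adjusted p = 7.96e-06) and -1.98 with it (adjusted p = 1.16e-06), a 3.89-fold lower level in the fit without it. Scd2, a stearoyl-CoA desaturase that puts the first double bond into saturated acyl chains, read 7.19, 6.68, 6.88, 6.69 and 5.86 in EPA replicates 1 to 5, against 8.49, 8.14, 8.42 and 8.56 in OA replicates 1 to 4. It differed by -1.54 without EPA replicate 5 (standard error 0.35, limma, adjusted p = 0.00825) and -1.74 with it (adjusted p = 0.0016). The brighter probeset of Scd2 differed by less, -0.996 without EPA replicate 5 (adjusted p = 0.0131) and -1.20 with it (adjusted p = 0.00273). Srebf1 and Scd2 were the only called members of 19 expressed genes of fatty acid synthesis, elongation and desaturation. Of all genes tested, 3.35% were lower without EPA replicate 5. The list had a median difference of -0.26 without EPA replicate 5 and -0.40 with it, against 0.01 over all genes in the fit without it. Fasn, the fatty acid synthase, was estimated at -0.31 and missed the threshold (adjusted p = 0.473).

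Acsl3 and Acsl5 encode long-chain acyl-CoA synthetases, which activate fatty acids before esterification. Acsl3 read 7.69, 7.93, 7.76, 7.77 and 7.31 in EPA replicates 1 to 5, against 8.89, 8.73, 9.06 and 8.64 in OA replicates 1 to 4, and differed by -1.04 without EPA replicate 5 (standard error 0.19, limma, adjusted p = 0.000668) and -1.14 with it (adjusted p = 0.000105). Acsl5, among the brightest transcripts of the tissue, read 13.15, 13.20, 13.13, 13.18 and 12.997 in EPA replicates 1 to 5, against 13.62, 13.45, 13.61 and 13.65 in OA replicates 1 to 4. Neither gene's groups overlapped, although the change of Acsl5 was small, at -0.42 without EPA replicate 5 (standard error 0.07, limma, adjusted p = 0.000136) and -0.45 with it (adjusted p = 1.93e-05). Slc27a2, a fatty acid transport protein with very-long-chain acyl-CoA synthetase activity, passed narrowly without EPA replicate 5 (-0.79, adjusted p = 0.0445, with all arrays -0.89, adjusted p = 0.012), and the call was lost on leaving out any further array except OA replicate 2 (adjusted p up to 0.127). No member of this list of 13 expressed genes of uptake, binding and activation was higher. Uptake and binding proteins themselves showed no difference past the threshold: Cd36 was estimated at 0.06 (95% interval -0.40 to 0.53), Fabp1 at -0.06 (-0.16 to 0.05), Fabp2 at -0.05 (-0.13 to 0.03) and Slc27a4 at -0.13 (-0.41 to 0.15). None of the 4 passed with all arrays either, and a p that misses the threshold does not show that the levels were alike.

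The promoters of both Srebf1 and Acsl3 hold a sequence of the kind bound by liver X receptors (LXR), nuclear receptors for oxysterols that induce Srebf1 and Abca1 in many tissues, and so does the promoter of Abca1, which was higher in EPA mice. They are shown because these genes carry the lipid results and the spelling is rare. The letters searched were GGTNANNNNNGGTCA, a direct repeat with 4 free bases between the repeats, on both strands of the 250 bases before each start. They occurred in 58 of 32851 promoters (0.177%) and in 5 of the 7049 expressed genes with an entry (0.0709%), which were Abca1, Acsl3, Fasn, Idh3b and Srebf1. Among genes called without EPA replicate 5 they occurred in 2 of 230 lower and 1 of 190 higher genes. A match is a description of letters and not a binding site, and Idh3b, a subunit of isocitrate dehydrogenase, did not pass the test. The sequences are from RefSeq on GRCm38.p6, 5′ to 3′ on the strand of the gene, each ending 1 base before the start, with the match in capitals. In all 3 the match lies on the opposite strand. The Srebf1 promoter is chr11:60210472-60210721 (minus strand, match at -182 to -168 from the start), that of Acsl3 chr1:78657575-78657824 (plus strand, -112 to -98) and that of Abca1 chr4:53159896-53160145 (minus strand, -67 to -53).
Srebf1: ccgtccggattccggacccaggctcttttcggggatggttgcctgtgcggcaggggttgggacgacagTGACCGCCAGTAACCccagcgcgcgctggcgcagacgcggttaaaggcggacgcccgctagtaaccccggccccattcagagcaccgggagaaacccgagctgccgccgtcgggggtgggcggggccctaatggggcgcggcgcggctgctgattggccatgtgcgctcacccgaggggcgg
Acsl3: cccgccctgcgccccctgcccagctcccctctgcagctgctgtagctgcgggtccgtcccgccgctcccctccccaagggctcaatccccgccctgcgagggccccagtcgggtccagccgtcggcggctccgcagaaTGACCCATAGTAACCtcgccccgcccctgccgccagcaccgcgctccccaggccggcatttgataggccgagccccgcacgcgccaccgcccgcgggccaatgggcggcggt
Abca1: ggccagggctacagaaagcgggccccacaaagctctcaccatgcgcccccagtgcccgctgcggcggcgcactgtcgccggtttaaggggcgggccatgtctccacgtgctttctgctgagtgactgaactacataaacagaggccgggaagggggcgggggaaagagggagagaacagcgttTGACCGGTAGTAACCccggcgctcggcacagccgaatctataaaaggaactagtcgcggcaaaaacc

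Triacylglycerol resynthesis and chylomicron assembly was the list with the most lower members without EPA replicate 5: 7 of 19 expressed genes were lower in EPA mice and none was higher in either fit, where 3.35% of all genes tested were lower and 2.72% higher without EPA replicate 5. The median difference of the list was -0.22 in both fits, against 0.01 over all genes without EPA replicate 5. Dgat2, which adds the last acyl chain, read 10.22, 9.93, 9.66, 9.73 and 9.71 in EPA replicates 1 to 5, against 10.79, 10.53, 10.75 and 10.70 in OA replicates 1 to 4, with no overlap, and differed by -0.81 without EPA replicate 5 (standard error 0.20, limma, adjusted p = 0.0142) and -0.84 with it (adjusted p = 0.00438). The call for Dgat2 without EPA replicate 5 was lost on this probeset on also leaving out EPA replicate 3 or 4 (adjusted p up to 0.0606). Its brighter probeset differed by -0.76 without EPA replicate 5 (adjusted p = 0.00574). Dgat1, the other enzyme of this step, was estimated at -0.01 (95% interval -0.17 to 0.16). Gpam, the mitochondrial acyltransferase of the first step, read 7.53, 7.71, 7.65, 7.51 and 7.30 in EPA replicates 1 to 5, against 8.37, 7.78, 8.75 and 8.42 in OA replicates 1 to 4. Its difference was -0.73 without EPA replicate 5 (standard error 0.17, limma, adjusted p = 0.0112) and -0.79 with it (adjusted p = 0.00264), and without EPA replicate 5 it was lost on leaving out OA replicate 3 (-0.59, adjusted p = 0.0654). Agpat3, an acyltransferase of phospholipid and triacylglycerol synthesis, differed by -0.45 (adjusted p = 0.0317, with all arrays -0.46, adjusted p = 0.0129). OA replicate 1 (7.77) overlapped with EPA replicate 1 (7.78) for this gene, and its call was lost in 5 of the 8 leave-outs. Another Agpat3 probeset of like brightness differed by -0.42 (adjusted p = 0.134).

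On the secretory side, Apoc2, the lipoprotein lipase cofactor carried by chylomicrons, read 12.75, 12.64, 12.84, 12.76 and 12.69 in EPA replicates 1 to 5, against 13.38, 13.17, 13.18 and 13.46 in OA replicates 1 to 4. All EPA values lay below all OA values, the difference was -0.55 without EPA replicate 5 (standard error 0.10, limma, adjusted p = 0.000756) and -0.56 with it (adjusted p = 0.00017), and it held on leaving out any array. Apoa4, a chylomicron apolipoprotein near the top of the range of the array, differed by -0.22 (adjusted p = 0.0145, with all arrays -0.22, adjusted p = 0.00934), a 1.17-fold lower level. Mttp, the microsomal transfer protein that lipidates apolipoprotein B, and Sar1b, the GTPase that sends chylomicron precursors out of the endoplasmic reticulum, were both in the list and are named after their values were seen. Mttp read 12.92, 12.79, 12.89, 12.80 and 12.74 in EPA replicates 1 to 5, against 13.25, 13.13, 13.22 and 13.41 in OA replicates 1 to 4, and Sar1b read 12.09, 12.13, 12.38, 12.23 and 11.84 in EPA replicates 1 to 5, against 12.64, 12.49, 12.62 and 12.64 in OA replicates 1 to 4. They differed by -0.40 (adjusted p = 0.0339, with all arrays -0.42, adjusted p = 0.0119) and by -0.39 (adjusted p = 0.018, with all arrays -0.47, adjusted p = 0.00366), and in both genes every EPA mouse lay below every OA mouse. The calls for Apoa4, Mttp and Sar1b without EPA replicate 5 were each lost in some leave-outs (adjusted p up to 0.0672, 0.127 and 0.0595), OA replicate 4 and EPA replicate 2 among them for all 3. Apob itself, also named after its values were seen, overlapped widely, with an estimate of -0.58 (95% interval -1.24 to 0.09). The number of lower genes in the list was 4 instead of 7 when OA replicate 4 or EPA replicate 2 was left out as well. The sum of enterocyte markers was also lower in every EPA mouse, by 0.09 on average, and its part in the differences was not tested. That sum includes Apoa4, a member of this list and the only called one of the 10 expressed markers. Without EPA replicate 5 the median difference of the markers was -0.04, and 3 of the 10 had estimates above 0.

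**Figure D2:**
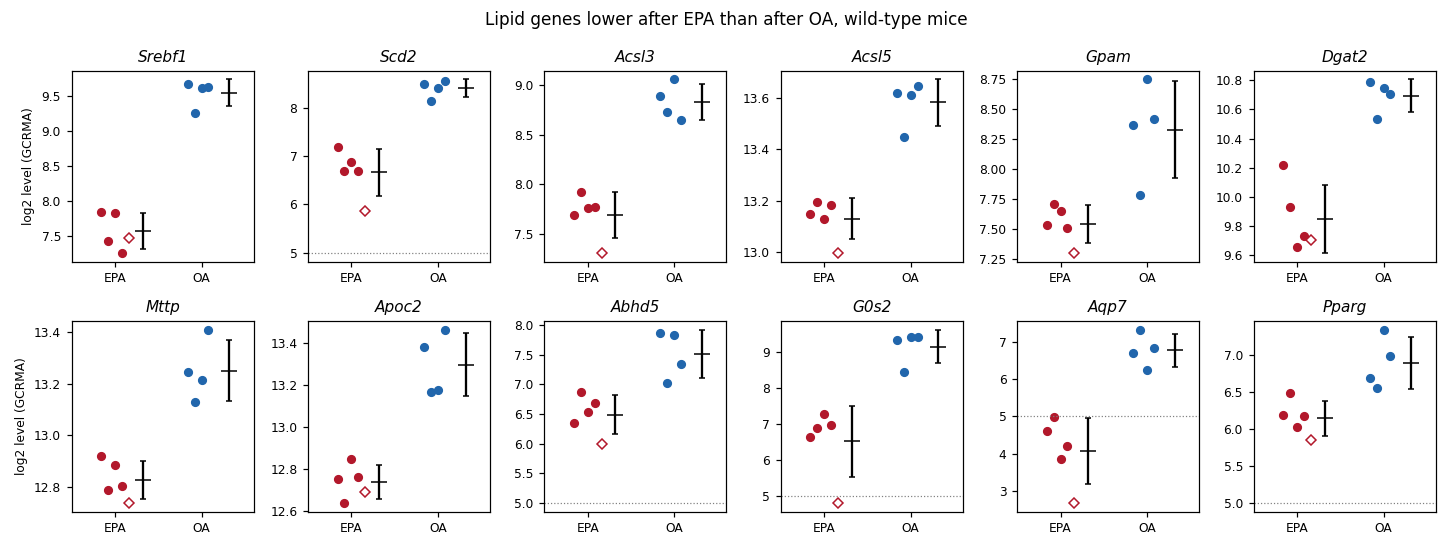
Log2 signal of lipid genes in the EPA mice (left) and the OA mice (right), 1 point per mouse, with EPA replicate 5 as an open diamond, the mean and SD of all arrays of a group as bars and a dotted line at log2 5. Srebf1 lay between 7.26 and 7.84 in EPA mice and between 9.26 and 9.68 in OA mice.

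In the lipid droplet list the largest called fall was that of G0s2. This gene, whose product inhibits adipose triglyceride lipase, read 6.63, 6.90, 7.27, 6.97 and 4.80 in EPA replicates 1 to 5, against 9.31, 8.44, 9.39 and 9.41 in OA replicates 1 to 4. EPA replicate 5 lay far below the other EPA mice and OA replicate 2 below the other OA mice, and the groups did not overlap. The difference was -2.20 without EPA replicate 5 (standard error 0.47, limma, adjusted p = 0.00416) and -2.63 with it (adjusted p = 0.000849). Abhd5, the activator of the same lipase, read 6.35, 6.87, 6.54, 6.69 and 6.002 in EPA replicates 1 to 5, against 7.86, 7.02, 7.83 and 7.35 in OA replicates 1 to 4, and differed by -0.90 without EPA replicate 5 (standard error 0.17, limma, adjusted p = 0.00133) and -1.02 with it (adjusted p = 0.000229). An inhibitor and an activator of lipolysis were thus both lower. Lipa, the lysosomal acid lipase, differed by -1.003 (adjusted p = 0.012, with all arrays -0.94, adjusted p = 0.00972), a call lost on this probeset on leaving out OA replicate 4 or EPA replicate 3 (adjusted p up to 0.0595). Its brighter probesets differed by -0.85 and -0.79 without EPA replicate 5 (adjusted p = 0.0114 and 0.0012). The droplet coat proteins depended on EPA replicate 5. Plin2 read 11.17, 11.21, 11.32, 11.16 and 10.03 in EPA replicates 1 to 5, against 11.98, 11.43, 12.26 and 12.20 in OA replicates 1 to 4, and was called with all arrays (-0.99, adjusted p = 0.023) but not without that array (-0.75, adjusted p = 0.0921). Plin3 (-0.54, adjusted p = 0.0343) and Cidec (-0.79, adjusted p = 0.0461) were likewise called only with it, and missed the threshold without it (-0.51, adjusted p = 0.0815, and -0.59, adjusted p = 0.164). Plin2 and Plin3 were named after their values were seen. In all, 3 of 12 expressed genes of the list were lower without EPA replicate 5 and 6 with it, beside 3.35% and 4.36% of all genes tested. The medians were -0.55 and -0.57, against 0.01 over all genes without EPA replicate 5. With all arrays, leaving out OA replicate 3 or 4 also brought the count to 3, and without EPA replicate 5, leaving out EPA replicate 3 as well brought it to 5. Aqp7, a glycerol channel known from adipocytes, read 4.62, 4.97, 3.84, 4.19 and 2.67 in EPA replicates 1 to 5, against 6.70, 7.32, 6.24 and 6.82 in OA replicates 1 to 4, and was at least 3.41-fold lower, by the OA mean over the expression limit of 32. Its probeset can match several transcripts. Since G0s2, Cidec and Aqp7 are also genes of fat cells, the adipocyte markers were examined. Adipoq, Retn and Lep were below log2 5 in both groups. The 3 expressed markers were Cidec itself, Fabp4 and Car3, so their sum is no separate check of Cidec. The sum was 10.999 to 11.15 in EPA mice and 11.09 to 11.57 in OA mice. Without EPA replicate 5, Fabp4 differed by 0.13 and Car3 by 0.51, both without a call (limma, adjusted p = 0.838 and 0.884).

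Of 21 expressed genes of mitochondrial fatty acid oxidation, 1 was lower without EPA replicate 5 and none was higher, where 3.35% of all genes tested were lower. This was Cpt1a, the carnitine acyltransferase of the outer membrane, at -0.53 (adjusted p = 0.0205, with all arrays -0.62, adjusted p = 0.00434), which was lost in 4 of the 8 leave-outs (adjusted p up to 0.095). The probeset read is the dimmest for Cpt1a and can match several transcripts. The brighter ones differed by -0.47 (adjusted p = 0.0436) and, without a call, by -0.37 (adjusted p = 0.226) without EPA replicate 5. Slc25a20, the carnitine-acylcarnitine carrier, read 10.55, 10.57, 10.71, 10.62 and 9.21 in EPA replicates 1 to 5, against 10.57, 10.57, 10.67 and 10.53 in OA replicates 1 to 4, and the difference without EPA replicate 5 was 0.03 (95% interval -0.40 to 0.46). Cpt2 (-0.03, interval -0.30 to 0.24), the carnitine transporter Slc22a5 (0.01, -0.45 to 0.46) and the peroxisomal transporter Abcd3 (-0.16, -0.43 to 0.11) also missed the threshold. With all arrays the 4 estimates were -0.25, -0.21, -0.21 and -0.31 in the same order, and none passed. In each of these genes EPA replicate 5 was the lowest of the 9 arrays. Pdk4, the kinase that turns off pyruvate dehydrogenase, read 9.28, 9.46, 9.48, 9.35 and 6.03 in EPA replicates 1 to 5, against 11.12, 10.07, 10.90 and 10.28 in OA replicates 1 to 4. All EPA values were below all OA values, yet the estimate of -1.20 missed the threshold (95% interval -2.30 to -0.10, adjusted p = 0.24), as did that of -1.87 with all arrays (adjusted p = 0.07). Cyp4f16, a fatty acid omega-hydroxylase, was the exception and read 9.75, 9.76, 10.05, 9.84 and 9.08 in EPA replicates 1 to 5, against 10.65, 10.56, 10.53 and 10.90 in OA replicates 1 to 4. It differed by -0.81 without EPA replicate 5 (standard error 0.15, limma, adjusted p = 0.000713) and -0.97 with it (adjusted p = 0.00017), and held on leaving out any array. For Cyp4a10 the difference was -0.89 without EPA replicate 5, with an interval of -3.63 to 1.85 that spans both directions, and -2.23 with all arrays (adjusted p = 0.446).

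Ppard and Pparg moved in opposite directions. Ppard, the isotype common in epithelia, read 8.14, 7.91, 7.39, 7.74 and 8.56 in EPA replicates 1 to 5, against 6.93, 7.17, 7.22 and 6.77 in OA replicates 1 to 4, higher in every EPA mouse, and differed by 0.77 without EPA replicate 5 (standard error 0.19, limma, adjusted p = 0.0114) and 0.93 with it (adjusted p = 0.00228). Pparg, the isotype of adipocytes and of differentiating colonocytes, read 6.19, 6.49, 6.03, 6.17 and 5.85 in EPA replicates 1 to 5, against 6.69, 6.55, 7.34 and 6.99 in OA replicates 1 to 4, and differed by -0.67 without EPA replicate 5 (standard error 0.18, limma, adjusted p = 0.0224) and -0.75 with it (adjusted p = 0.0055). Without EPA replicate 5, the call for Ppard was lost on leaving out OA replicate 4 or EPA replicate 1 (adjusted p up to 0.0538), and that for Pparg on leaving out OA replicate 3 or 4 or EPA replicate 3 or 4 (up to 0.123). Ppargc1b, a coactivator of these receptors, was called only without EPA replicate 5, at -0.45 (adjusted p = 0.046, with all arrays -0.35, adjusted p = 0.148), and the call was lost in 6 of 8 leave-outs.

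Abca1, the transporter that hands cholesterol to apolipoprotein A1, was higher in EPA mice. It read 9.07, 9.31, 9.20, 8.75 and 8.23 in EPA replicates 1 to 5, against 7.98, 7.89, 7.96 and 7.16 in OA replicates 1 to 4, with OA replicate 4 below the other OA mice and no overlap. The difference was 1.33 without EPA replicate 5 (standard error 0.30, limma, adjusted p = 0.0061) and 1.16 with it (adjusted p = 0.012), a 2.52-fold higher level without EPA replicate 5. With all arrays the call was lost on leaving out OA replicate 4 (0.97, adjusted p = 0.073), while without EPA replicate 5 it held in all 8 leave-outs. The other probesets of Abca1 were estimated at 1.31 and 1.15 and missed the threshold (adjusted p = 0.112 and 0.303). Abca1 and Nr1h4 were the 2 higher members of 13 expressed genes of sterol uptake, efflux and LXR targets, beside 2.72% of all genes tested without EPA replicate 5. Nr1h4, the bile acid receptor FXR, differed by 0.57 (adjusted p = 0.0247, with all arrays 0.51, adjusted p = 0.0282) and was lost in 5 of 8 leave-outs. Lpcat3, an acyltransferase that puts polyunsaturated chains into phospholipid, was lower (-0.35, adjusted p = 0.0204, with all arrays -0.40, adjusted p = 0.00447, lost in 5 of 8). Nr0b2, a corepressor known as a target of FXR in liver, was also lower, and read 6.32, 7.17, 7.55, 6.21 and 5.95 in EPA replicates 1 to 5, against 8.50, 7.79, 8.46 and 8.22 in OA replicates 1 to 4. It differed by -1.43 without EPA replicate 5 (standard error 0.35, limma, adjusted p = 0.0134) and -1.60 with it (adjusted p = 0.00291), and without EPA replicate 5 the call was lost on leaving out EPA replicate 1 or 4 (adjusted p up to 0.0699). In cholesterol synthesis 3 of 20 expressed genes were lower without EPA replicate 5, beside 3.35% of all genes tested, and none was higher. Pmvk, phosphomevalonate kinase, held in every leave-out (-0.94, adjusted p = 0.0033, with all arrays -0.86, adjusted p = 0.0038), whereas lanosterol synthase, Lss (-0.77, adjusted p = 0.0384, with all arrays -0.71, adjusted p = 0.0359), and sterol-C5-desaturase, Sc5d (-0.51, adjusted p = 0.0413, with all arrays -0.43, adjusted p = 0.0718), were each lost in 5 or more of the 8. A brighter probeset of Lss differed by -0.33 (adjusted p = 0.51) and one of Sc5d by -0.12 (adjusted p = 0.674), both without a call.

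Several of the largest falls lay outside lipid handling. Leap2, an antimicrobial peptide that also blocks the ghrelin receptor, read 10.89, 10.97, 11.17, 11.23 and 11.03 in EPA replicates 1 to 5, against 13.10, 12.55, 12.90 and 12.95 in OA replicates 1 to 4. It differed by -1.81 without EPA replicate 5 (standard error 0.18, limma, adjusted p = 1.35e-07) and -1.82 with it (adjusted p = 2.66e-08), a 3.51-fold lower level of an abundant transcript. Ltc4s, leukotriene C4 synthase, which conjugates leukotriene A4 with glutathione, read 4.67, 4.72, 5.03, 4.62 and 4.06 in EPA replicates 1 to 5, against 7.61, 6.26, 6.95 and 7.12 in OA replicates 1 to 4. The EPA mean lay under log2 5, so the fold is given as at least 3.96, and the difference was -2.23 without EPA replicate 5 (standard error 0.29, limma, adjusted p = 8.56e-06) and -2.37 with it (adjusted p = 1.06e-06). Of the 8 group means of Ltc4s, only those of OA mice, wild-type (6.99) and PPARα-null (6.07), were above log2 5. The gene was thus tested, here and below, only through the groups in which it was high. Of 13 expressed genes of eicosanoid enzymes and receptors 3 were lower and none was higher in either fit, where 3.35% of all genes tested were lower without EPA replicate 5. Those besides Ltc4s were Ephx2, the soluble epoxide hydrolase (-0.56, adjusted p = 0.0332, with all arrays -0.63, adjusted p = 0.00818), and the calcium-independent phospholipase Pla2g6 (-0.51, adjusted p = 0.0388, with all arrays -0.65, adjusted p = 0.00871), which were lost in 7 and 6 of the 8 leave-outs.

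Lrrc75b read 3.79, 3.40, 3.69, 3.62 and 3.13 in EPA replicates 1 to 5, against 6.68, 6.29, 7.04 and 6.73 in OA replicates 1 to 4, and was at least 3.21-fold lower (adjusted p = 1.39e-07 by limma without EPA replicate 5 and 2.66e-08 with it). Its group means were above log2 5 only in OA mice, wild-type (6.68) and PPARα-null (5.60), so it was likewise tested only through groups in which it was high. Paqr9, of the progestin and adipoQ receptor family, read 2.82, 2.87, 2.70, 2.79 and 3.46 in EPA replicates 1 to 5, against 5.41, 5.14, 4.61 and 5.02 in OA replicates 1 to 4, and of the 8 group means only that of wild-type OA mice was above log2 5, so that the gene was tested through this group and its fold is only a bound, at least 1.03-fold lower (adjusted p = 6.98e-08). Slc6a3, the dopamine transporter, read 4.81, 5.01, 4.67, 4.55 and 3.47 in EPA replicates 1 to 5, against 7.83, 6.73, 8.15 and 7.07 in OA replicates 1 to 4, and was at least 5.44-fold lower (adjusted p = 0.000172). These were low signals, in which the size of a log2 difference is less certain than its direction. Dnah2, an axonemal dynein chain, was 6.07-fold lower (adjusted p = 1.09e-06) and also held in every leave-out, with an EPA mean just above log2 5 without EPA replicate 5 and just below it with all arrays. Brighter falls that held in every leave-out of both fits were arylsulfatase G, Arsg (-2.21, adjusted p = 9.68e-07, with all arrays -2.28, adjusted p = 1.17e-07), the mitochondrial outer membrane protein Miga2 (-1.63, adjusted p = 6.57e-05, with all arrays -1.66, adjusted p = 1.2e-05), Dipk2a (-1.66, adjusted p = 0.000187, with all arrays -1.80, adjusted p = 2.66e-05) and the beta-tubulin Tubb2a (-1.60, adjusted p = 0.000375, with all arrays -1.86, adjusted p = 8.15e-05). The brighter probesets of Miga2 differed by less, -0.81 and -0.95 (adjusted p = 0.00119 and 2.66e-05). The Arsg and Tubb2a probesets can match more than 1 transcript. Susd2 (-2.07, adjusted p = 0.0172, with all arrays -2.35, adjusted p = 0.00367) and the monocarboxylate carrier Slc5a12 (-1.93, adjusted p = 0.0106, with all arrays -1.69, adjusted p = 0.0183) were large falls that did not hold throughout on the probesets read. For Slc5a12, EPA replicate 2 read 5.49 against 6.82 to 8.26 in the other EPA mice, and without it the difference was -1.41 (adjusted p = 0.0636). The brighter Slc5a12 probeset differed by -1.85 without EPA replicate 5 (adjusted p = 0.00497) and -1.64 with it (adjusted p = 0.00854). With both probesets counted, Slc5a12 kept its call in all 8 leave-outs of the fit without EPA replicate 5. For Susd2 the call was lost without OA replicate 1 or 4 or EPA replicate 2 or 4 (adjusted p up to 0.0687).

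Rasd1 and Socs3 were among the largest rises. Rasd1, a Ras-related protein induced by glucocorticoids, read 8.82, 7.81, 7.55, 5.46 and 9.02 in EPA replicates 1 to 5, against 2.55, 2.51, 2.66 and 2.85 in OA replicates 1 to 4. All OA values were near the lower end of the range, and the EPA values spread over more than 3 log2 units, with EPA replicate 4 the lowest. The difference was 4.77 without EPA replicate 5 (standard error 0.85, limma, adjusted p = 0.00064) and 5.09 with it (adjusted p = 0.000105), a level at least 5.31-fold higher. Of the 8 group means of Rasd1, only those of EPA mice, wild-type (7.73) and PPARα-null (6.32), were above log2 5. The gene was thus tested, here and below, only through the groups in which it was high. Socs3, the feedback inhibitor of STAT3 signalling, read 8.91, 8.53, 8.20, 8.33 and 9.29 in EPA replicates 1 to 5, against 4.97, 4.51, 6.17 and 5.28 in OA replicates 1 to 4, and differed by 3.26 without EPA replicate 5 (standard error 0.79, limma, adjusted p = 0.012) and 3.42 with it (adjusted p = 0.0034), a 9.57-fold higher level in the fit without it. These values are from the dimmest of the 3 expressed Socs3 probesets, and the brighter ones differed by 2.02 and 1.88 without EPA replicate 5 (adjusted p = 0.00961 and 0.00851) and by 2.21 and 2.05 with it. On the probesets read, Rasd1 and Socs3 held in every leave-out, although for Socs3 without EPA replicate 5 the adjusted p reached 0.0429. Stat3, the transcription factor that Socs3 restrains, read 9.78, 9.92, 9.67, 9.69 and 9.79 in EPA replicates 1 to 5, against 9.22, 9.11, 9.19 and 8.88 in OA replicates 1 to 4. It was named after its values were seen, did not overlap between groups, and differed by 0.67 without EPA replicate 5 (standard error 0.15, limma, adjusted p = 0.00517) and 0.67 with it (adjusted p = 0.00181).

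Il1rn, the antagonist of the interleukin-1 receptor, read 5.05, 6.23, 6.32, 5.56 and 6.44 in EPA replicates 1 to 5, against 3.37, 3.15, 3.10 and 3.20 in OA replicates 1 to 4, and Il33, an epithelial cytokine released on injury, read 10.55, 10.91, 10.14, 10.51 and 10.78 in EPA replicates 1 to 5, against 8.21, 8.91, 8.13 and 8.10 in OA replicates 1 to 4. Both were higher in every EPA mouse than in any OA mouse. Il1rn differed by 2.59 without EPA replicate 5 (standard error 0.43, limma, adjusted p = 0.000253) and 2.72 with it (adjusted p = 4.03e-05), at least 1.73-fold. Of the 8 group means of this Il1rn probeset, only that of wild-type EPA mice (5.92) was above log2 5. It was thus tested only through the group in which it was high. Il33 differed by 2.19 without EPA replicate 5 (standard error 0.44, limma, adjusted p = 0.00213) and 2.24 with it (adjusted p = 0.000549), 4.58-fold. Nfkbia, the inhibitor of NF-κB, was higher by 0.55 (adjusted p = 0.00351, with all arrays 0.56, adjusted p = 0.00105), and F3, tissue factor, by 1.38 (adjusted p = 7.63e-05, with all arrays 1.53, adjusted p = 1.2e-05), both in every leave-out. Bcl3, a nuclear partner of NF-κB (1.49, adjusted p = 0.0237, with all arrays 1.59, adjusted p = 0.00736), and Plaur, the urokinase receptor (1.22, adjusted p = 0.0143, with all arrays 1.12, adjusted p = 0.0145), were higher but lost in 4 and 2 of the 8 leave-outs. These 4 genes were chosen after their values were seen. Tifa, an adaptor of TRAF signalling (2.05, adjusted p = 0.032, with all arrays 2.28, adjusted p = 0.00844), and the epithelial tyrosine kinase Ptk6 (2.61, adjusted p = 0.0228, with all arrays 2.72, adjusted p = 0.00785) were among the largest rises and were lost in 7 and 4 of the 8 leave-outs, though both held in all 9 with EPA replicate 5 included. The promoter of Socs3 holds the STAT-type letters TTCNNNGAA at -154 to -146, and those of Il1rn and Nfkbia the kappaB-type letters GGGNNTTTCC at -51 to -42 and -29 to -20. The STAT-type letters also lay in the promoters of B3galt5 (-10 to -2), which was higher, of Arsg (-54 to -46) and Nr0b2 (-91 to -83), which were lower, and of Cpt2 (-200 to -192), which was not called. The STAT-type letters were in 7.02% of all promoters, and in 6.95% of the expressed genes, 6.84% of the higher genes and 7.83% of the lower genes with an entry. The kappaB-type letters were in 1.41%, 1.8%, 3.16% (6 of 190) and 2.17% (5 of 230) in the same order. The first share counts promoters and the other shares count genes.

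**Figure D3:**
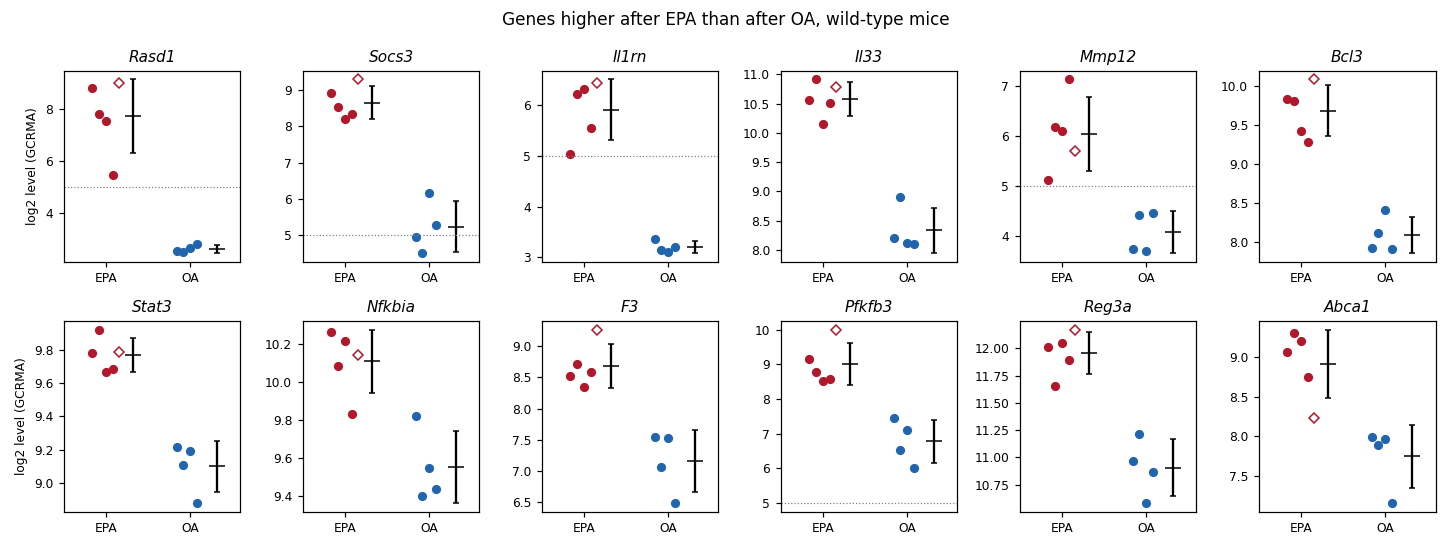
Log2 signal of genes that were higher after EPA, in EPA mice (left) and OA mice (right), 1 point per mouse, with EPA replicate 5 as an open diamond, the mean and SD of all arrays of a group as bars and a dotted line at log2 5. Rasd1 lay between 5.46 and 9.02 in EPA mice and between 2.51 and 2.85 in OA mice.

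Reg3a, B3gnt7 and Pfkfb3 were also higher in EPA mice. Reg3a, a C-type lectin of the epithelium, read 12.01, 11.65, 12.05, 11.89 and 12.17 in EPA replicates 1 to 5, against 10.96, 11.21, 10.58 and 10.87 in OA replicates 1 to 4, and differed by 0.996 without EPA replicate 5 (standard error 0.22, limma, adjusted p = 0.00482) and 1.05 with it (adjusted p = 0.00117). It was the only called one of 13 expressed antimicrobial and acute phase genes, of which 11 had estimates above 0, against 4426 of all 8626 genes without EPA replicate 5. B3gnt7, a glycosyltransferase of keratan-type chains, read 8.37, 8.09, 7.78, 8.04 and 8.41 in EPA replicates 1 to 5, against 6.41, 6.68, 5.57 and 6.29 in OA replicates 1 to 4, and differed by 1.84 without EPA replicate 5 (standard error 0.37, limma, adjusted p = 0.00288) and 1.90 with it (adjusted p = 0.000664). Gcnt3, the core-branching enzyme of mucin glycans, was at least 2.92-fold higher on its dimmest probeset (adjusted p = 0.00673 without EPA replicate 5). Its far brighter probesets differed by less, 1.56 and 1.20 (adjusted p = 0.000975 and 0.00227 without EPA replicate 5), so the bound holds for the dim probeset only. B3galt5, a galactosyltransferase, was at least 2.28-fold higher (adjusted p = 0.0267, lost in 6 of 8 leave-outs). Pfkfb3, which makes the activator of glycolysis fructose 2,6-bisphosphate, read 9.14, 8.78, 8.51, 8.58 and 9.996 in EPA replicates 1 to 5, against 7.44, 6.54, 7.11 and 6.01 in OA replicates 1 to 4, with EPA replicate 5 the highest, and differed by 1.98 without EPA replicate 5 (standard error 0.37, limma, adjusted p = 0.000985) and 2.23 with it (adjusted p = 0.000166). The predicted genes 9130008F23Rik and Gm11545 differed by 1.79 (adjusted p = 4.12e-07, with all arrays 1.81, adjusted p = 5.39e-08) and 1.66 (adjusted p = 0.0103, with all arrays 1.90, adjusted p = 0.00196). The OA means of Gm11544, Ly6d and the serine protease gene Prss27 lay under log2 5, and without EPA replicate 5 these genes were at least 1.47-fold (adjusted p = 0.0196), at least 2.24-fold (adjusted p = 0.0327) and at least 2.08-fold higher (adjusted p = 0.0164). Gm11544 was above log2 5 only in EPA mice, wild-type (5.88) and PPARα-null (5.57), and was tested only through these groups. The skeletal actin Acta1 was higher by 1.87 (adjusted p = 0.0384, with all arrays 1.71, adjusted p = 0.0393), and each of the 4 was lost in 3 or more of the 8 leave-outs.

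Mmp12, macrophage elastase, read 5.11, 6.17, 6.09, 7.13 and 5.70 in EPA replicates 1 to 5, against 3.73, 4.41, 3.69 and 4.46 in OA replicates 1 to 4, and differed by 2.05 without EPA replicate 5 (standard error 0.34, limma, adjusted p = 0.000253) and 1.97 with it (adjusted p = 0.000129). Cxcl10, an interferon-induced chemokine, read 4.96, 5.62, 5.64, 5.91 and 5.13 in EPA replicates 1 to 5, against 4.58, 4.34, 4.22 and 4.36 in OA replicates 1 to 4, and differed by 1.16 without EPA replicate 5 (standard error 0.22, limma, adjusted p = 0.00165) and 1.08 with it (adjusted p = 0.00148). Both were low signals with OA means under log2 5, so the folds are at least 2.18 and at least 1.45. Of the 8 group means only those of EPA mice were above log2 5, at 6.04 (wild-type) and 5.04 (PPARα-null) for Mmp12 and 5.45 and 5.01 for Cxcl10. Both genes were thus tested, here and below, only through the groups in which they were high. Cxcl10 was the only called one of 21 expressed interferon-induced genes. Of 9 expressed macrophage and dendritic cell markers, 2 were higher without EPA replicate 5, beside 2.72% of all genes tested. They were the lysosomal Cd68 (0.65, adjusted p = 0.0281, not called with all arrays, adjusted p = 0.145) and the integrin Itgax (at least 1.43-fold, adjusted p = 0.0122, with all arrays adjusted p = 0.011), which were lost in 4 and 2 of the 8 leave-outs. C1qa was called higher with all arrays only. The median difference of the 9 markers was 0.37 without EPA replicate 5 and 0.40 with it, and 7 estimates were above 0 in each fit. Over all genes the median was 0.01 without EPA replicate 5. The sum of the 9 markers, of which Lyz2 was the brightest (12.22), was 12.53 to 12.85 in EPA mice and 12.51 to 12.63 in OA mice. Itgam and Cd163 were under log2 5. The part of these cells in the rise of Mmp12 and Cxcl10 was not tested. Markers of T cells (5 expressed) and of B and plasma cells (7 expressed) had no call.

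A few stress and detoxification genes passed the test, and several calls depended on EPA replicate 5. Hspa1a, an inducible heat shock protein, read 6.20, 6.96, 5.94, 4.61 and 3.11 in EPA replicates 1 to 5, against 4.40, 3.55, 3.93 and 3.23 in OA replicates 1 to 4. Its OA mean lay under log2 5, and it was at least 1.9-fold higher without EPA replicate 5 (adjusted p = 0.0146) and not called with it (adjusted p = 0.112), and near-identical copies of this gene make its probes uncertain. Hspa8 (1.38, adjusted p = 0.0199, with all arrays 1.33, adjusted p = 0.0126) and Dnajb1 (0.54, adjusted p = 0.0452, with all arrays 0.51, adjusted p = 0.0412), its constitutive relative and a cochaperone, completed 3 of 21 heat shock genes, and each of the 3 was lost in 2 or more of the 8 leave-outs. Of all genes tested, 2.72% were higher without EPA replicate 5. The called probeset of Hspa8 was a dim one, and the 3 far brighter probesets of this gene differed by -0.12, 0.04 and 0.01 (adjusted p = 0.741, 0.877 and 0.974 without EPA replicate 5). Nqo1, the quinone reductase that is a classic target of NRF2, read 7.70, 7.28, 7.64, 7.36 and 6.90 in EPA replicates 1 to 5, against 6.97, 6.85, 6.73 and 7.13 in OA replicates 1 to 4. It differed by 0.58 without EPA replicate 5 (standard error 0.14, limma, adjusted p = 0.0108) and 0.46 with it (adjusted p = 0.0519), held in all 8 leave-outs, and missed the threshold only with EPA replicate 5 in. Gclc, the catalytic subunit of glutathione synthesis, differed by 0.81 (adjusted p = 0.0259, with all arrays 0.74, adjusted p = 0.0253), lost in 6 of 8, and its brighter probeset by 0.71 (adjusted p = 0.0942). The 20 expressed glutathione S-transferases had 20 estimates above 0 without EPA replicate 5, with a median of 0.22, and 18 with it. Over all 8626 genes, 4426 estimates were above 0 without EPA replicate 5, with a median of 0.01. Of the transferases only Gsta2 (0.73, adjusted p = 0.0283) and Mgst2 (0.28, adjusted p = 0.0285) passed, neither with EPA replicate 5 (adjusted p = 0.158 and 0.0831), and each was lost in 4 or more of 8 leave-outs. The metallothioneins Mt1 (-0.62, adjusted p = 0.0219, with all arrays -0.47, adjusted p = 0.107) and Mt2 (-1.15, adjusted p = 0.0111, with all arrays -0.87, adjusted p = 0.083) were lower without EPA replicate 5, lost in 5 and 2 of the 8 leave-outs, and not called with it. Mt2 read 10.96, 9.94, 9.90, 9.73 and 11.54 in EPA replicates 1 to 5, against 11.66, 10.64, 11.47 and 11.37 in OA replicates 1 to 4, so that EPA replicates 1 and 5 lay among the OA mice.

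Transporters of other nutrients changed in single genes. Slc13a1, the sodium-sulphate cotransporter, read 9.79, 8.90, 9.75, 9.32 and 10.63 in EPA replicates 1 to 5, against 7.39, 8.12, 7.76 and 8.37 in OA replicates 1 to 4, and differed by 1.53 without EPA replicate 5 (standard error 0.30, limma, adjusted p = 0.00213) and 1.77 with it (adjusted p = 0.000368). Its brighter probeset differed by 0.76 (adjusted p = 0.00042 without EPA replicate 5). Slc40a1, the iron exporter ferroportin, was higher by 0.84 (adjusted p = 0.0315, with all arrays 0.98, adjusted p = 0.00712), lost in 6 of 8 leave-outs on that probeset. Its brighter probeset differed by 0.78 (adjusted p = 0.00448, with all arrays 0.91, adjusted p = 0.000856). The amino acid carriers Slc7a9 (0.30, adjusted p = 0.0191, with all arrays 0.31, adjusted p = 0.00618) and Slc38a2 (0.43, adjusted p = 0.0426, with all arrays 0.40, adjusted p = 0.036) were higher, lost in 3 and 5. Slc26a3, the chloride-bicarbonate exchanger, differed by -0.31 (adjusted p = 0.00652, with all arrays -0.33, adjusted p = 0.00167) with a narrow spread in OA mice (10.25 to 10.30), and held throughout. None of 14 expressed sugar transporters and disaccharidases, 17 other ABC transporters, 45 respiratory chain genes, 15 enteroendocrine hormones or 11 retinoid genes was called in either fit. Cry2, a repressor of the circadian clock, read 5.44, 5.46, 5.87, 5.52 and 6.26 in EPA replicates 1 to 5, against 6.88, 6.22, 6.86 and 6.49 in OA replicates 1 to 4. It was called in both fits, at -1.04 without EPA replicate 5 (standard error 0.25, limma, adjusted p = 0.0114) and -0.90 with it (adjusted p = 0.0216), and with all arrays the call was lost in 5 of 9 leave-outs (adjusted p up to 0.0862). It was the only called one of 12 expressed clock genes without EPA replicate 5, and Per2 was called as well with all arrays. Myc (0.81, adjusted p = 0.0384, with all arrays 0.82, adjusted p = 0.0171) was the only called immediate early gene of 16 without EPA replicate 5, and was lost in 5 of 8 leave-outs. Mcm2, of the replication helicase, was the only one of 25 proliferation genes, at -0.62 (adjusted p = 0.0194, with all arrays -0.61, adjusted p = 0.011), lost in 4 of 8.

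**Figure D4:**
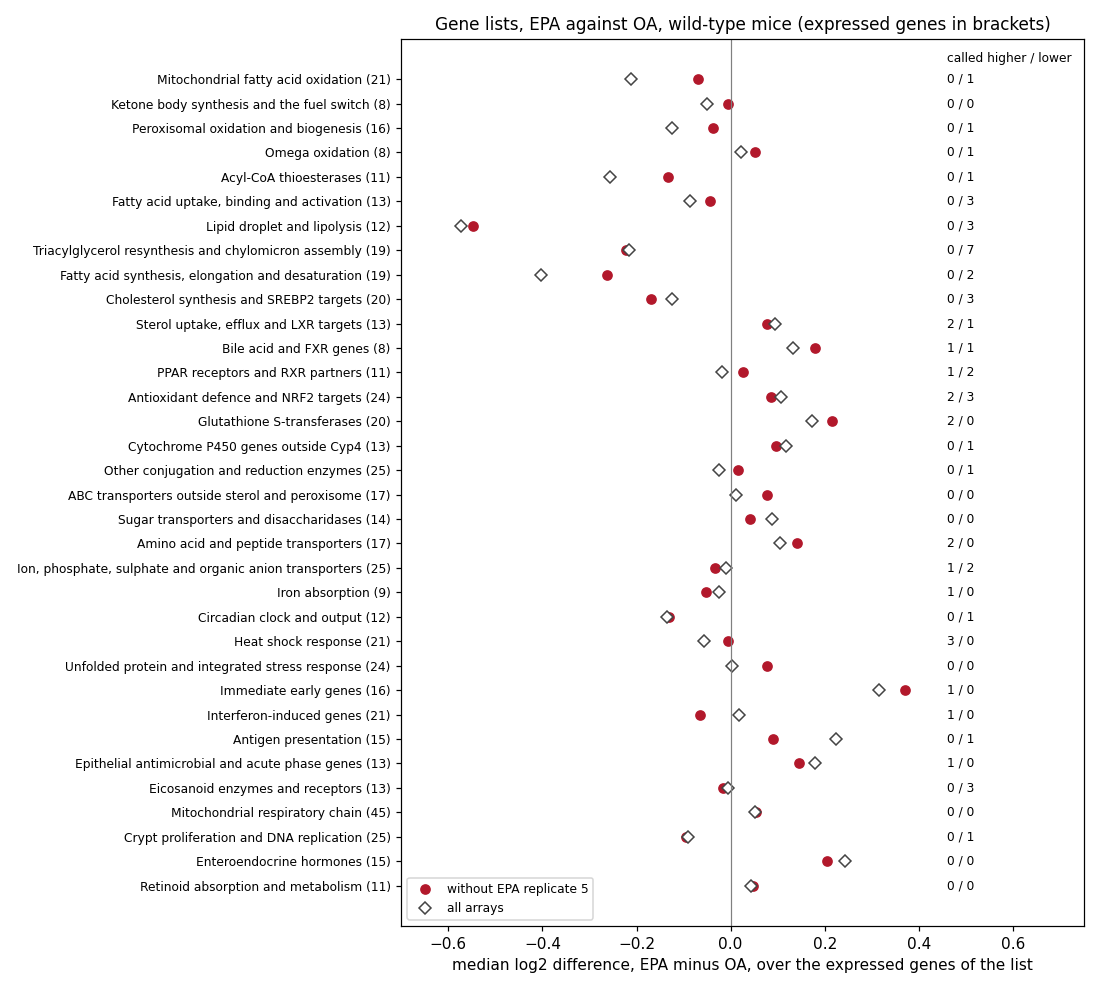
Median log2 difference (EPA minus OA) over the expressed genes of each list, without EPA replicate 5 (filled) and with all arrays (open), with the number of genes called higher and lower without EPA replicate 5 at the right. Cell type marker lists are not plotted, and of the lists plotted lipid droplet genes lay lowest, at -0.55 and -0.57, and triacylglycerol resynthesis and chylomicron assembly had 7 lower and 0 higher of 19.

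The same genes were then read in wild-type mice given DHA and in PPARα-null mice given EPA, in the fit without EPA replicate 5. The comparison of DHA with OA uses the same OA arrays as that of EPA with OA, so the values stand side by side only. It called 129 genes higher (1.5%) and 281 lower (3.26%). For Srebf1 the EPA mice differed from the OA mice by -1.96 and the DHA mice by -1.97 (adjusted p = 3.03e-06). For Ltc4s the values were -2.23 for EPA and -2.60 for DHA, for Leap2 -1.81 and -1.41, for Apoc2 -0.55 and -0.61, and for Abca1 1.33 and 1.26, all called in both. Rasd1 stood at 4.77 for EPA and 2.28 for DHA (adjusted p = 0.131), Socs3 at 3.26 and 1.45 (0.391), and Il1rn at 2.59 and 1.16 (0.121), with only the EPA value past the threshold.

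The direct test of EPA against DHA called 25 genes without EPA replicate 5, 20 higher (0.232%) and 5 lower (0.058%), and 62 with all arrays. Mmp12 was higher after EPA than after DHA by 1.79 (standard error 0.32, limma, adjusted p = 0.00856) and Cxcl10 by 1.19 (0.21, adjusted p = 0.00856), and Gsta2 differed the other way, by -0.90 (0.19, adjusted p = 0.0298). With all arrays these 3 differences were 1.71, 1.11 and -1.10 (adjusted p = 0.00522, 0.00608 and 0.00662). For Rasd1, Socs3 and Il1rn the same test missed the threshold, at 2.49 (95% interval 0.84 to 4.14), 1.81 (0.28 to 3.34) and 1.43 (0.60 to 2.25), and these p-values neither show nor exclude a difference between EPA and DHA. For Srebf1 the difference between EPA and DHA was 0.01, with an interval of -0.48 to 0.50.

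In PPARα-null mice EPA against OA called 131 genes higher (1.52%) and 150 lower (1.74%), and 274 in all when null EPA replicate 5 and null OA replicate 1, which go against their genotype labels, were left out. Srebf1 differed by -1.20 in null mice (adjusted p = 0.00425) and by -1.14 without those arrays (0.00555). Leap2 differed by -0.98 and -1.10, Ltc4s by -1.56 and -1.71, Cxcl10 by 1.11 and 1.19, and Apoc2 by -0.39 and -0.41, all called with and without them. Abca1 (0.57 and 0.77), Rasd1 (2.13 and 2.82), Socs3 (1.59 and 2.42) and Acsl3 (-0.42 and -0.42) missed the threshold in null mice. The difference between the genotypes in the response to EPA against OA was tested directly by the interaction in limma, and no gene passed at an adjusted p under 0.05 with or without the arrays in question. Of 8626 genes tested, 633 had an unadjusted p under 0.05 without EPA replicate 5 and 682 with all arrays. These counts take any of the 13710 probesets with 1 symbol, and by chance about 1 in 20 probesets has such a p. For Srebf1 the interaction was -0.76 (95% interval -1.47 to -0.04, adjusted p = 0.97) and for Rasd1 2.64 (0.25 to 5.04, 0.97). The wild-type and null mice also differ in substrain, which cannot be told apart from the genotype.

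**Figure D5:**
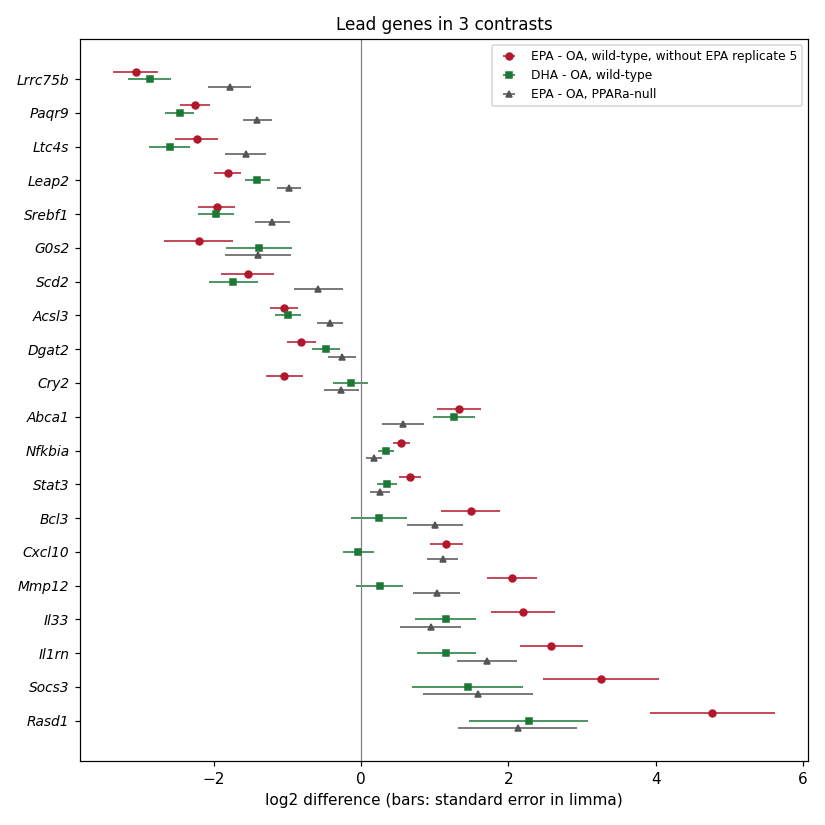
Log2 difference with its standard error as bars for 20 lead genes, for EPA minus OA in wild-type mice (circles), DHA minus OA in wild-type mice (squares) and EPA minus OA in PPARα-null mice (triangles), in the fit without wild-type EPA replicate 5. Srebf1 lay at -1.96, -1.97 and -1.20, and Cxcl10 at 1.16, -0.03 and 1.11.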

How the data were processed

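Total RNA of the whole small intestine, 1 mouse per array, had been hybridised to 1-colour Affymetrix mouse genome arrays, and the authors deposited GCRMA-normalised log2 values, 1 per probeset. From these, with control probesets left out, limma 3.58.1 in R 4.3.3 was fitted with a mean for each of the 8 groups over all 35 arrays, or without wild-type EPA replicate 5, with an intensity trend. Contrasts were EPA minus OA, DHA minus OA and EPA minus DHA in wild-type mice, EPA minus OA in null mice, and the interaction. Adjustment for multiple tests followed Benjamini and Hochberg, over 15384 expressed probesets, and a gene was called if any of its probesets passed 0.05. Gene symbols came from the platform annotation, where 932 probesets with several symbols and 9160 with none named no gene. GCRMA draws low signals together, so where a group mean was under log2 5 the fold was taken against 32 and written as at least. Members and gene lists were chosen with earlier results of these data known. Named genes were the 15 largest rises and falls of each fit, up to 4 called members (otherwise the 3 brightest) of each list, and genes that the study follows up, with exceptions stated in the text. A gene is given on its called probeset of largest difference, otherwise on its brightest. Intervals are at 95%. Promoters (250 bases before the start) were RefSeq entries on GRCm38.p6, which held 84 of 106 genes examined. The fit was tested on simulated data. Alternatives varied the filter, the spread model, the normalisation, the probesets, the threshold, a replicate block and the arrays left out. The number of arrays limits the precision, and replicates are separate mice by the study's methods.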

Additional observations from a re-analysis of the deposited data

Results flagged for a closer look

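In 19 of 212 groups examined (106 genes in EPA mice and in OA mice), 1 array lay farther from the others than Dixon's 95% limit allows. The limit is passed by chance in about 1 in 20 groups chosen without regard to their values. These genes were chosen with earlier results known and include Cyp4a10, by which EPA replicate 5 was set apart. The count therefore cannot be set against that rate and is no test of this array. All 11 flagged groups among EPA mice were set by EPA replicate 5, which was the lowest in 10. Its value, against the range of the other 4 EPA mice, was 4.80 against 6.63 to 7.27 for G0s2, 9.38 against 10.58 to 10.74 for Tubb2a, 10.03 against 11.16 to 11.32 for Plin2, 6.03 against 9.28 to 9.48 for Pdk4, 1.81 against 8.15 to 8.68 for Cyp4a10, 8.14 against 9.45 to 9.93 for Ppara, 9.21 against 10.55 to 10.71 for Slc25a20, 10.08 against 10.81 to 11.09 for Cpt2, 11.64 against 12.33 to 12.48 for Abcd3 and 9.05 against 10.06 to 10.23 for Slc22a5. In Paqr9 it was the highest, at 3.46 against 2.70 to 2.87. Cyp4a10, Pdk4, Plin2, Slc25a20, Cpt2 and Slc22a5 are known PPARα targets, and what else sets this array apart was not tested. Among OA mice, replicate 2 was set apart in 6 genes, at 8.44 against 9.31 to 9.41 for G0s2, 9.26 against 9.62 to 9.68 for Srebf1, 12.49 against 12.62 to 12.64 for Sar1b, 7.94 against 8.19 to 8.21 for Pla2g6, 3.50 against 2.72 to 2.84 for B3galt5 and 8.91 against 8.10 to 8.21 for Il33. OA replicate 4 was lowest for Abca1 (7.16 against 7.89 to 7.98), and OA replicate 3 highest for Gm11545 (9.50 against 8.92 to 8.99).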

How the results depend on the processing

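No called difference changed sign under any alternative run, while small estimates of genes not called in either fit (Cd36, Cpt2, Dgat1, Fabp2, Ppara, Slc22a5 and Slc25a20) did under some. With all arrays the 691 genes called became 333 at an adjusted p under 0.01 and 477 to 675 when each array was left out. Without EPA replicate 5 the 524 genes became 239 at that limit, 895 with array weights, and 354 to 473 when a further array was left out. The lipid droplet count of 6 with all arrays became 3 with only the 2 groups compared in the fit, 3 at an adjusted p under 0.01, and 3 to 7 when each array was left out. Without EPA replicate 5 its 3 became 5 with only the 2 groups, 6 with array weights, 5 with the replicate block and 3 to 5 on leaving out a further array. The triacylglycerol and chylomicron count of 7 without EPA replicate 5 became 3 at an adjusted p under 0.01 and 4 to 7 on leaving out an array. The 62 genes that differed between EPA and DHA became 25 without EPA replicate 5 and 37 without the 3 arrays that go against their labels. The fit with the replicate block called 676 genes with all arrays and 580 without EPA replicate 5. Same-numbered EPA and OA mice did not deviate together (correlations of -0.34 to -0.05), and the numbers were not used as pairs. The labels do not say what the numbers mark, and so few correlations cannot exclude a shared batch. Other filters, priors, scalings and probeset choices gave 544 to 847 genes with all arrays and 424 to 543 without EPA replicate 5, and genes with higher calls made up 36.5 to 49.1% of them over all alternatives. Of the values of single genes under the alternatives, 4328 kept their side of the threshold, 416 fell short of it and 42 passed it anew. The cause was not tested, except that array weights give less influence to arrays that stand apart and that leave-outs hold fewer mice. Signal under log2 5 limits the size of a change in low genes.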

Other observations

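A few single genes of lists with no other call were lower in EPA mice. Mep1b, a brush border metalloprotease, read 12.84, 12.70, 12.87, 12.78 and 12.78 in EPA replicates 1 to 5, against 13.02, 12.91, 13.06 and 13.13 in OA replicates 1 to 4, a small difference of -0.23 without EPA replicate 5 (standard error 0.06, limma, adjusted p = 0.0106) and -0.24 with it (adjusted p = 0.00361) with no overlap. Cyp2d26, a cytochrome P450 of drug metabolism, read 11.95, 11.59, 12.02, 11.59 and 11.70 in EPA replicates 1 to 5, against 12.38, 12.19, 12.31 and 12.53 in OA replicates 1 to 4, and differed by -0.57 without EPA replicate 5 (standard error 0.14, limma, adjusted p = 0.0127) and -0.59 with it (adjusted p = 0.00431). H2-K1, a classical antigen-presenting molecule, differed by -0.55 (adjusted p = 0.0183, with all arrays -0.54, adjusted p = 0.0102) on a probeset that can match several transcripts, while no other of the 15 expressed antigen presentation genes was called without EPA replicate 5. The 3 brighter probesets of H2-K1 differed by -0.20, -0.21 and 0.03 and missed the threshold (adjusted p = 0.333, 0.477 and 0.876). Without EPA replicate 5 these calls were lost on leaving out OA replicate 4 for Mep1b, OA replicate 4 or EPA replicate 2 or 4 for Cyp2d26, and OA replicate 1 or EPA replicate 2 or 4 for H2-K1 (adjusted p up to 0.0566, 0.062 and 0.0837). The elastases Cela2a and Cela3b of pancreatic acinar cells read 3.52 and 4.84 in EPA replicate 2 and were far brighter in the other EPA mice.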
